A study of Oryza sativa with 6 samples.

Results

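The plasma membrane aquaporins of rice, the PIP family, were followed in leaves of an overexpressor of DGP1 and of its wild type. The family was taken as 10 locus IDs, OsPIP1;1 to OsPIP1;3 and OsPIP2;1 to OsPIP2;7, written below in the hyphenated form of the RefSeq gene table (PIP1-1 and so on) and chosen by family name, with earlier results of these data known but with no measured value in the rule. Of these, 8 had a row among the 19696 rows of the table (3 PIP1 and 5 PIP2 genes), and PIP2-3 (Os04g0521100) and PIP2-5 (Os07g0448200), both reported mainly from roots in rice, were not analysed here. RNA was sequenced from leaves of rice (Oryza sativa) plants 3 weeks old, grown on half-strength MS, a defined plant culture medium. The groups were 3 libraries of ZH11, a japonica variety that served as the wild type, and 3 libraries of DGP1-OE1, a single overexpression line of DGP1. DGP1 is known to lower the activity of GOLDEN2-LIKE, a factor that promotes chlorophyll synthesis, in rice glumes. Sample titles add the label Ck to both groups without explaining it. The labels give neither the promoter of the transgene nor whether a library was 1 plant or a pool, so the p-values reflect variation among the libraries at hand, part of which may be technical.

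Aquaporins are channel proteins that sit in membranes as tetramers and let water pass along osmotic gradients, and some also pass carbon dioxide, hydrogen peroxide or metalloids. In plants the PIP subfamily lies in the plasma membrane and is divided into PIP1 and PIP2. PIP2 proteins are mostly the stronger water channels when tested alone, and in maize PIP1 proteins need PIP2 partners to reach the plasma membrane. In leaves they serve the movement of water from the veins into the mesophyll.

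Levels are given in FPKM, fragments normalised for transcript length and for the size of the library, so that genes can be set beside each other. Summed over all rows, FPKM came to between 686327 and 752617 per library. Depth cannot be read from FPKM and is unknown. No source used here pairs the other IDs with names, so the level of DGP1 itself and leaf markers were not checked. Across all tested genes the libraries grouped by genotype only in part. Pearson's r on the log2(FPKM + 1) scale ran from 0.930 to 0.938 within ZH11. Within DGP1-OE1 it ran from 0.913, for replicates 2 and 3, to 0.951, the highest of all pairs. Between genotypes it ran from 0.893, for ZH11 replicate 3 with DGP1-OE1 replicate 2, to 0.942, for replicate 2 of each. The ranges within and between genotypes thus overlapped. Each r is taken over genes, and these do not count as independent replicates.

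PIP1-1 was the dominant PIP transcript of these leaves. It was followed by PIP2-2 and PIP1-2, then by PIP2-1. PIP2-7, PIP1-3 and PIP2-6 formed a group of moderate level, and PIP2-4 lay far below all others. By its mean over the 6 libraries, 1279 FPKM, PIP1-1 ranked 60th among all 19696 rows. PIP2-2 had a mean of 371 FPKM and rank 227, PIP1-2 had 355 FPKM and rank 242, and PIP2-1 had 163 FPKM and rank 566. The means of PIP2-7, PIP1-3 and PIP2-6 were 69.9, 47.7 and 30.2 FPKM. PIP2-4 had a mean of 2.07 FPKM, below the median of 8.83 FPKM over the tested genes.

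The order was only partly resolved by the spread between libraries. PIP1-1 exceeded PIP2-2 in 6 of 6 libraries, by 3.05 to 3.83 times. PIP2-2 and PIP1-2 overlapped in both genotypes, and PIP2-2 was the higher in only 2 of the 6 libraries, DGP1-OE1 replicates 1 and 3. PIP1-2 lay above PIP2-1 in all 6 libraries by 1.60 to 2.65 times, and PIP2-1 above PIP2-7 in all 6 by 1.19 to 5.66 times. PIP2-7 and PIP1-3 overlapped in ZH11 but not in DGP1-OE1, and PIP1-3 and PIP2-6 overlapped in both genotypes. PIP2-6 exceeded PIP2-4 in 6 of 6 libraries, by at least 6.76 times.

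**Figure D1:**
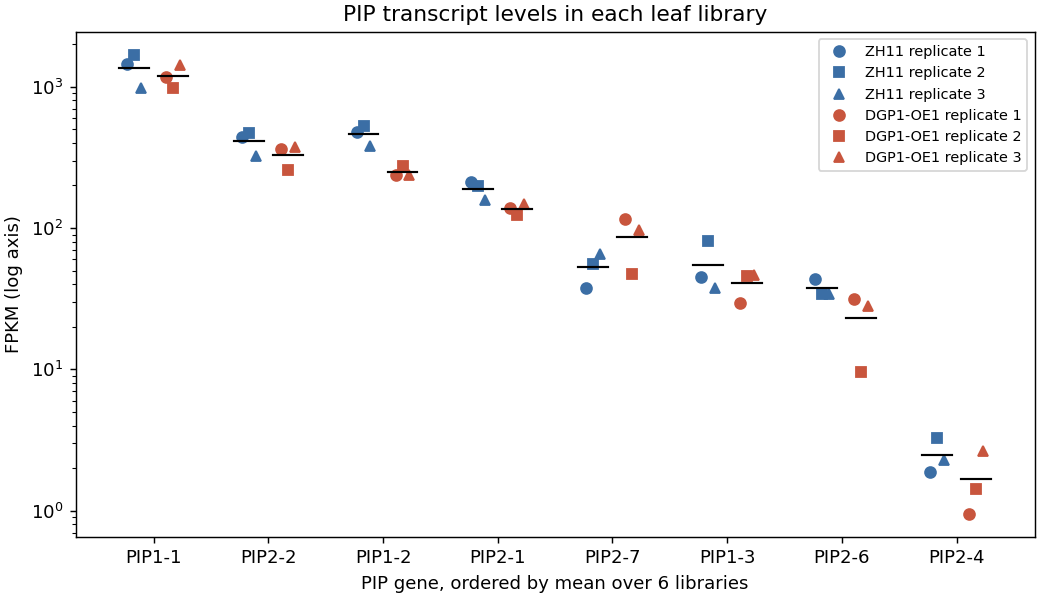
FPKM of each PIP gene (log axis) in the 3 ZH11 libraries (blue) and the 3 DGP1-OE1 libraries (red), with a marker shape per replicate and a black line at each group's mean. PIP1-1 lies above all others in every library, PIP2-4 below all others, and the groups do not overlap for PIP1-2, PIP2-1 and PIP2-6.

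The question for the family was whether its transcripts differed between the overexpressor and the wild type. No PIP gene passed the test over the whole table (limma on log2(FPKM + 1), Benjamini-Hochberg adjusted p under 0.05). It called 0 of the 8 PIP genes, against 0.356% of the 18270 genes tested (65 genes, with 0.159% higher and 0.197% lower in DGP1-OE1). An unadjusted p under 0.05 was reached by 3 of the 8, PIP1-2, PIP2-1 and PIP2-6, against 8.8% of tested genes (4.53% higher and 4.26% lower). That count was 1 of 8 without ZH11 replicate 1, without ZH11 replicate 2 or without the intensity trend, 2 or 3 in the other settings without a replicate block, and 4 with the block. In the same 3 genes every DGP1-OE1 library lay below every ZH11 library. Among tested genes 7.19% had non-overlapping groups in that direction, 6.72% in the other and 13.9% in either. By the estimates 7 PIP genes were lower in DGP1-OE1 and 1, PIP2-7, was higher, where 51.1% of tested genes had a lower estimate. The median difference was -0.39 log2 units over the 8 PIP genes and -0.01 over all tested genes. The PIP genes are not independent of each other, as the levels of most were correlated over the libraries (below). Their summed FPKM overlapped between the genotypes. All 8 PIP genes passed the filter on low values.

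**Figure D2:**
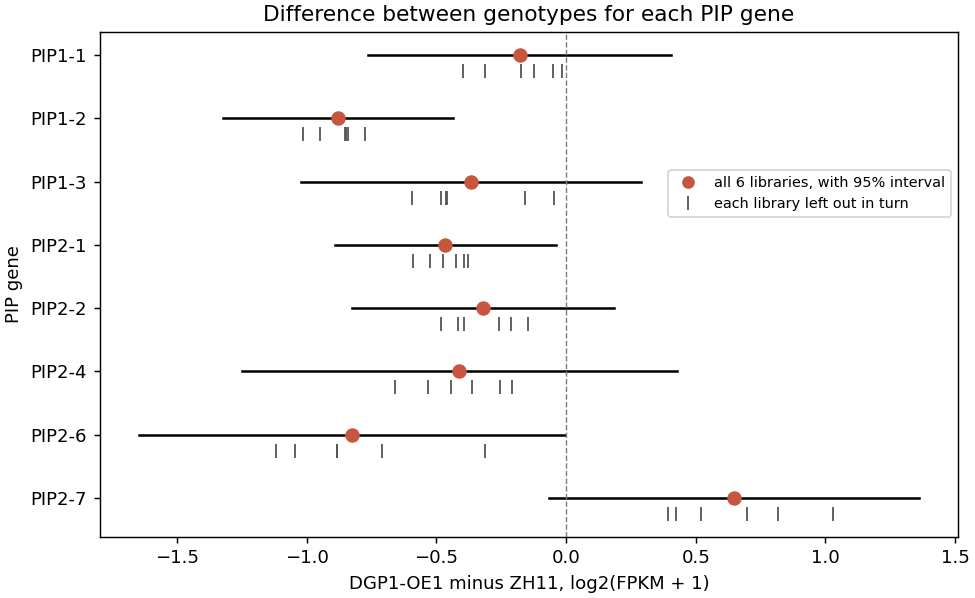
Difference between DGP1-OE1 and ZH11 on the log2(FPKM + 1) scale for each PIP gene (red point) with its 95% interval from the limma fit (black line), and the estimates with each library left out in turn (grey ticks). With all 6 libraries the estimate of PIP1-2, -0.88, lies farthest from 0, and PIP2-7 at 0.65 is the only estimate above 0. The intervals of PIP1-2, PIP2-1 and PIP2-6 stay below 0. They are not adjusted for the number of genes tested, and no PIP gene passed after adjustment in this fit.

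Among the PIP1 genes, PIP1-2 (Os04g0559700, chromosome 4) showed the largest difference of the family in size with all 6 libraries, close to that of PIP2-6. It kept that place without ZH11 replicate 1 or 3. PIP2-6 passed it without ZH11 replicate 2 and without DGP1-OE1 replicate 1 or 3, and PIP2-7 did without DGP1-OE1 replicate 2. PIP1-2 has been linked in rice to the passage of carbon dioxide in leaves. The ZH11 libraries, replicates 1, 2 and 3 in turn here and below, held 475, 529 and 380 FPKM of it. The overexpressor libraries, in the same turn, held 236, 273 and 237 FPKM. All DGP1-OE1 libraries lay below all ZH11 libraries, and the spread within DGP1-OE1 was small. The wild type mean, 461 ± 75.7 FPKM, was 1.86 times the overexpressor mean of 249 ± 21.1 FPKM (SD, n = 3 each). On the log2(FPKM + 1) scale the difference was -0.88 with an SE of 0.20 and a 95% interval of -1.32 to -0.44 (limma, adjusted p = 0.143). By its unadjusted p it ranked 143rd among the 18270 tested genes. A model with the replicate number as a block gave the same difference and called it (limma, adjusted p = 0.0335), but nothing in the labels pairs libraries of equal number. In the other settings tried its adjusted p lay between 0.101 and 0.549.

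PIP1-1 (Os02g0666200, chromosome 2), also known as the rice water channel RWC1, had wild type levels of 1442, 1670 and 986 FPKM and overexpressor levels of 1172, 984 and 1420 FPKM. The genotypes overlapped: ZH11 replicates 1 and 2 lay above every DGP1-OE1 library, while ZH11 replicate 3 and DGP1-OE1 replicate 2 shared nearly the same low value. The genotypes differed by -0.18 log2 units, SE 0.27 (limma, adjusted p = 0.913), and the 95% interval, -0.76 to 0.41, spans ratios of 0.589 to 1.32. Leaving out ZH11 replicate 2 gave -0.02, and leaving out ZH11 replicate 3 gave -0.40, with -0.05 and -0.31 without DGP1-OE1 replicates 2 and 3 and -0.09 after quantile normalization.

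For PIP1-3 (Os02g0823100, chromosome 2), known as RWC3 and studied in rice for drought avoidance, the values were 45.1, 81.4 and 37.6 FPKM among the ZH11 libraries and 29.7, 45.5 and 46.8 FPKM among those of DGP1-OE1. ZH11 replicate 2 stood above the other 5 libraries. The estimate was -0.37 log2 units, SE 0.30, with a 95% interval of -1.02 to 0.29 (limma, adjusted p = 0.798), and it was -0.04 without ZH11 replicate 2, -0.16 without DGP1-OE1 replicate 1 and -0.59 without ZH11 replicate 3.

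Of the PIP2 genes, PIP2-2 (Os02g0629200, chromosome 2) was the most abundant. Transcripts of this water channel were at 442, 471 and 324 FPKM in the wild type libraries and at 362, 257 and 373 FPKM in the overexpressor libraries. The groups overlapped, since ZH11 replicate 3 lay below DGP1-OE1 replicates 1 and 3. A difference of -0.32 log2 units, SE 0.23, was estimated, with a 95% interval of -0.82 to 0.19 (limma, adjusted p = 0.767), and it became -0.15 without DGP1-OE1 replicate 2 and -0.48 without ZH11 replicate 3.

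PIP2-1 (Os07g0448800, chromosome 7), a water channel that contributes to the hydraulic conductivity of rice roots, reached 212, 200 and 158 FPKM without the transgene and 138, 123 and 148 FPKM in the overexpressor. The groups did not overlap, with only a narrow gap between ZH11 replicate 3 and DGP1-OE1 replicate 3. The mean of 190 ± 28.4 FPKM in ZH11 was 1.39 times that of 137 ± 12.6 FPKM in DGP1-OE1 (SD, n = 3 each). In log2 units this came to -0.46, SE 0.19, with a 95% interval of -0.89 to -0.04 (limma, adjusted p = 0.516).

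PIP2-6 (Os04g0233400, chromosome 4), whose protein passes arsenite as well as water in frog oocytes, was at 43.9, 34.2 and 34.2 FPKM in the 3 wild type libraries against 31.4, 9.57 and 28.2 FPKM in the 3 overexpressor libraries. The groups did not overlap, but DGP1-OE1 replicates 1 and 3 lay just under the ZH11 libraries and replicate 2 far under all. The means were 37.4 ± 5.61 and 23 ± 11.8 FPKM (SD, n = 3 each). The log2 difference of -0.82 had an SE of 0.37 and a 95% interval of -1.65 to -0.003 (limma, adjusted p = 0.567). Without DGP1-OE1 replicate 2 it was -0.31, the largest shift for any of the 8 genes among the fits that left out 1 library.

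PIP2-7 (Os09g0541000, chromosome 9) was the only PIP gene with a higher mean in the overexpressor. Its protein passes arsenite in frog oocytes too, and the gene has been studied in rice for chilling responses. Wild type libraries held 37.5, 55.4 and 65.6 FPKM, and those of the overexpressor 116, 47.6 and 97.1 FPKM. DGP1-OE1 replicates 1 and 3 lay above every ZH11 library, and DGP1-OE1 replicate 2 lay within the ZH11 range. The mean went from 52.9 ± 14.2 FPKM in the wild type to 86.8 ± 35.3 FPKM with DGP1 overexpressed (SD, n = 3 each), a log2 difference of 0.65, SE 0.32, with a 95% interval of -0.07 to 1.36 (limma, adjusted p = 0.616). It became 1.03 without DGP1-OE1 replicate 2 and 0.39 without DGP1-OE1 replicate 1.

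PIP2-4 (Os07g0448100, chromosome 7), another PIP2 channel that passes arsenite in frog oocytes, was listed at 1.89, 3.25 and 2.28 FPKM in wild type leaves and at 0.952, 1.42 and 2.65 FPKM in overexpressor leaves. The genotypes overlapped. The fit gave -0.41 log2 units, SE 0.38 (limma, adjusted p = 0.836), and on this scale changes of so low a gene are understated. The estimate was -0.62 with a pseudocount of 0.1 FPKM, -0.21 without DGP1-OE1 replicate 1, -0.26 without ZH11 replicate 2 and -0.66 without DGP1-OE1 replicate 3. In the RefSeq gene order PIP2-4, PIP2-5 and PIP2-1 are consecutive protein-coding genes of chromosome 7. PIP2-1 exceeded its low-level neighbour PIP2-4 by 56.1 to 145 times in FPKM over the 6 libraries. PIP genes are close copies of each other, and how the authors assigned reads that match several of them is not given in the sources used here, so the split between members is uncertain to that extent.

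The family as a whole took a small share of all FPKM. Summed over the 8 genes, PIP transcripts came to 2699, 3044 and 1987 FPKM in wild type and to 2085, 1742 and 2353 FPKM in overexpressor leaves, so that ZH11 replicate 3 lay within the DGP1-OE1 range. The means were 2577 ± 539 and 2060 ± 307 FPKM (SD, n = 3 each), or 0.360% ± 0.0802 of all FPKM in ZH11 and 0.278% ± 0.0355 in DGP1-OE1. PIP1 genes alone summed to 1882 ± 444 FPKM and 1481 ± 204 FPKM, in the same order, and PIP2 genes to 695 ± 97.1 and 579 ± 121 FPKM. Both subgroup sums overlapped between genotypes. In a leaf sample, fewer cells of a type and less RNA per cell cannot be told apart.

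The balance between the subgroups was nearly the same in both genotypes. PIP1 genes made up 72.7% ± 2.15 of the summed PIP FPKM in ZH11 and 72.0% ± 2.95 in DGP1-OE1 (SD, n = 3 each), with overlapping libraries. PIP1-1 took 53.4%, 54.9% and 49.6% of the PIP sum in the wild type against 56.2%, 56.5% and 60.3% in the overexpressor. Shares of PIP1-2 were 17.6%, 17.4% and 19.1% in the wild type against 11.3%, 15.7% and 10.1%. Neither share overlapped between genotypes, the first being higher and the second lower in every DGP1-OE1 library. The shares of all other members overlapped, and no share was tested. In FPKM, PIP1-1 overlapped between genotypes and had a lower mean in DGP1-OE1, so its higher share was not a higher level. The share of PIP2-2 ran from 15.5% to 16.4% in ZH11 and from 14.8% to 17.3% in DGP1-OE1, the ZH11 range lying inside the other. PIP2-7 held 2.17% ± 1.00 in ZH11 and 4.14% ± 1.41 in DGP1-OE1, with overlap between ZH11 replicate 3 at 3.30% and DGP1-OE1 replicate 2 at 2.73%. Shares of 1 sum are not independent, since a lower share of 1 member raises the others.

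**Figure D3:**
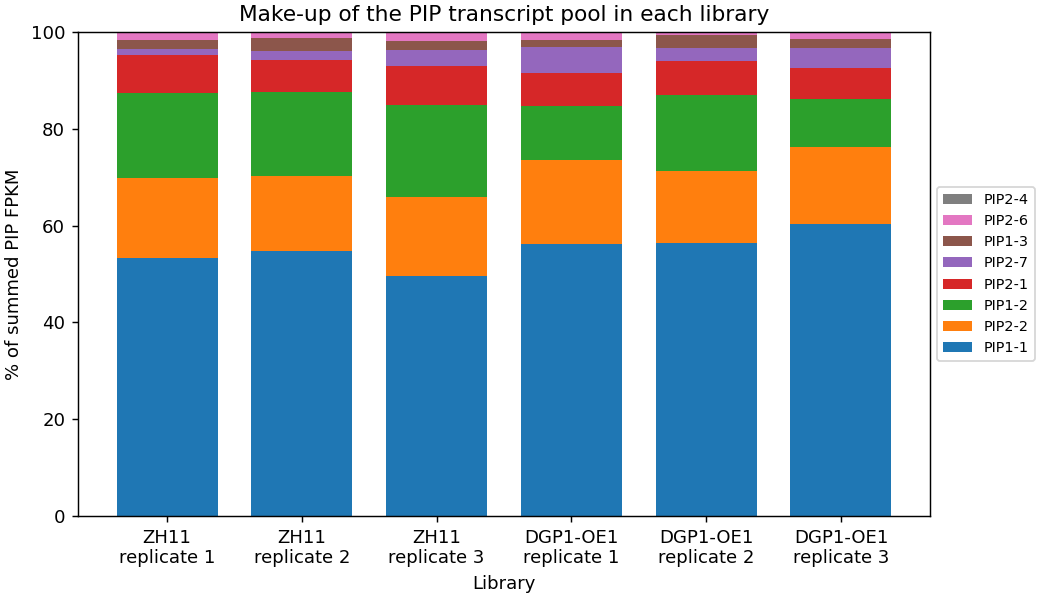
Share of each PIP gene in the summed FPKM of the 8 PIP genes, in percent, 1 stacked bar per library. PIP1-1 (bottom) takes 49.6% to 54.9% in ZH11 and 56.2% to 60.3% in DGP1-OE1, and PIP1-2 (green) is smaller in every DGP1-OE1 library.

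Ratios between members within a library do not change when that library is scaled by a single factor, though quantile normalization can change them. Those given here were picked after the values were seen, out of 28 possible pairs, and were not tested. PIP1-2 was at 32.9%, 31.7% and 38.5% of the PIP1-1 level in wild type libraries and at 20.1%, 27.7% and 16.7% of it in overexpressor libraries, all DGP1-OE1 libraries being lower. PIP1-2 exceeded PIP2-2 by 1.08, 1.12 and 1.17 times in ZH11, and in DGP1-OE1 the ratios were 0.651, 1.06 and 0.636. The ratio of PIP2-7 to PIP2-6 was 0.855, 1.62 and 1.92 in the wild type but 3.69, 4.98 and 3.44 with DGP1 overexpressed. This ratio separated the genotypes, as PIP2-6 alone already did by its lower level in DGP1-OE1, while PIP2-7 alone did not. DGP1-OE1 replicate 2 was the lowest overexpressor library for both genes.

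The variation between libraries was shared by some members and not by others. ZH11 replicate 2 was the highest ZH11 library for 5 of the 8 PIP genes and ZH11 replicate 3 the lowest for 5. Among the overexpressor libraries, replicate 3 was the highest for 5 genes and replicate 2 the lowest for 5. Over the 6 libraries, which are the same points for every pair, Pearson's r of log2(FPKM + 1) was above 0 for all 21 pairs without PIP2-7, from 0.028 to 0.908. The highest was that of PIP1-1 and PIP2-2. Of the 7 pairs with PIP2-7, 1 was above 0, and the lowest was PIP1-2 with PIP2-7 at -0.711. These values include the difference between the genotypes. With each genotype's mean removed, 18 of the 21 pairs without PIP2-7 were above 0, from -0.389 for PIP1-2 with PIP2-6 to 0.930 for PIP1-1 with PIP2-2, and 4 of the 7 pairs with PIP2-7, from -0.594 for PIP1-2 to 0.720 for PIP2-6. The coefficients describe 6 libraries and were not tested.

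**Figure D4:**
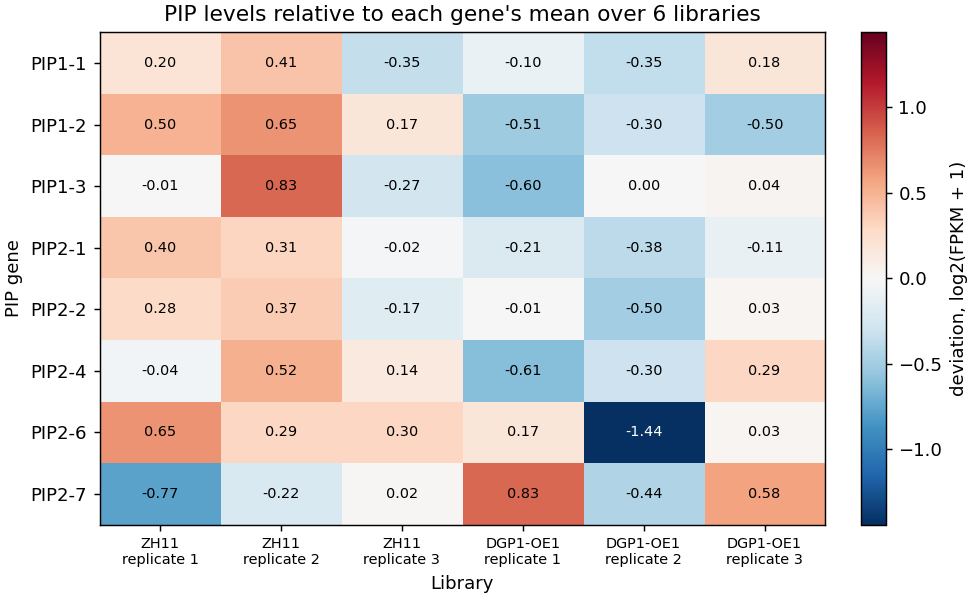
Deviation of each PIP gene in each library from that gene's mean over the 6 libraries, on the log2(FPKM + 1) scale (red above, blue below). The PIP1-2 row is above 0 in all ZH11 and below 0 in all DGP1-OE1 libraries, PIP2-6 in DGP1-OE1 replicate 2 has the largest deviation, -1.44, and PIP2-7 runs against most other rows in ZH11 replicate 1 and DGP1-OE1 replicate 1.

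The spread within genotypes differed between members. The pooled SD on the log2(FPKM + 1) scale was 0.184 for PIP2-1, 0.192 for PIP1-2, 0.293 for PIP2-2 and 0.334 for PIP1-1, below the median of 0.366 over all tested genes. It was 0.381 for PIP2-4, 0.478 for PIP1-3, 0.553 for PIP2-7 and 0.647 for PIP2-6, above that median. To reach the largest unadjusted p among the 65 called genes, a member would have needed a difference of 1.08 log2 units for PIP2-1, 1.12 for PIP1-2, 1.48 for PIP1-1 and up to 2.12 for PIP2-4.

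The genes whose pattern was most like that of the family were looked for among the 18262 other tested genes, by Pearson's r over the 6 libraries. With the summed PIP FPKM they were Os07g0530400 (r = 0.988, mean 2.78 FPKM) and Os03g0828500 (r = 0.987, mean 1.90 FPKM), and 82 genes had an r above 0.9. With PIP1-1 they were Os09g0297000 (r = 0.996, mean 6.67 FPKM) and Os12g0405100 (r = 0.994, mean 29.7 FPKM), and 81 genes had an r above 0.9. With so many genes and 6 libraries, values of this size are a description of these libraries only.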

How the data were processed

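RNA-seq of leaves was deposited as 1 table of FPKM made by the authors, used as deposited. HISAT2 2.0, StringTie 1.3.0 and Bowtie 0.12.2 are named, with no role or order, per the submitters' processing notes. These also name the build mm8, a mouse build that does not go with rice locus IDs. For rice, the build is not given in the sources used here, nor is the annotation. The overexpressor columns read DGP1-OE with a number and were taken as DGP1-OE1 with that replicate number, as the series has 1 overexpressor.

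Whole reads could not be recovered: of genes under 0.5 FPKM in both libraries of a pair, no more than 3.7% had 1 ratio in common to within 0.02 log2 units. Genes with at least 1 FPKM in at least 3 of 6 libraries were fitted with limma 3.58.1 (R 4.3.3) on log2(FPKM + 1), DGP1-OE1 minus ZH11, with an intensity trend, two-sided, adjusted over all 18270 tested genes at 0.05. This scale understates changes of low genes. Members are named in full. Members and lists were chosen with earlier results of these data known, though the rule for members uses no measured value. Names follow the member list: 0 of 19696 IDs matched the RefSeq table (ASM3414082v1), which holds all 10 family symbols, each on the chromosome its ID gives. Lists of other aquaporins and of tissue markers could therefore not be filled. Other settings were another pseudocount, filters, scalings, moderations, a replicate block and leaving out each library.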

Additional observations from a re-analysis of the deposited data

How the results depend on the processing

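Every PIP difference kept its sign under all 15 alternative settings that gave a value for it, PIP2-4 having none with a filter at 5 FPKM. For the other filters, the other moderations and the replicate block this was fixed in advance, since they leave the estimate unchanged. Only the other pseudocount, the scalings and leaving out a library could have changed a sign. No PIP gene was called higher in any setting. The number called lower was 0 throughout, leaving out each library in turn included (0 to 0), except with the replicate number as a block, where it was 1, PIP1-2, while the calls over all genes went from 65 to 269. Equal numbers were not taken as pairs because nothing in the labels pairs them. Deviations from the group means correlated at 0.016, 0.38 and 0.14 for replicates 1, 2 and 3. Among unequal numbers, ZH11 replicate 3 with DGP1-OE1 replicate 1 gave 0.21, and ZH11 replicate 1 with DGP1-OE1 replicate 3 gave 0.073. The remaining unequal pairs lay between -0.28 and -0.083. Whether libraries were paired was not tested. Leaving out each library gave a range of -1.01 to -0.77 for PIP1-2, -1.12 to -0.31 for PIP2-6 and 0.39 to 1.03 for PIP2-7. The ratio of the summed PIP FPKM, DGP1-OE1 over ZH11, was 0.799, with 0.772 to 0.811 under other scalings and 0.717 to 0.879 without single libraries. Calls over all genes were 42 with a pseudocount of 0.1 and 25 without ZH11 replicate 1. For each of these shifts the cause was not tested. Depth is unknown, so what it limits, for PIP2-4 above all, cannot be stated.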
